A study of Mus musculus with 20 samples.

Results

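H19, Meg3, Rian and Mirg are long non-coding RNAs transcribed from the maternal copy of imprinted gene clusters. The gene models of these RNAs, and of the loci that lie opposite Meg3 and Mirg, are described here. They were chosen by their locus identifiers in the deposited lincRNA catalogue: H19 is NONMMUG039673, Meg3 is NONMMUG009962, Rian is NONMMUG009968, Mirg is NONMMUG009975, the locus opposite Meg3 is NONMMUG009964 and the locus opposite Mirg is NONMMUG009973. These 6 loci, of 29286 in the catalogue, held 73 of its 40856 transcripts and 374 of its 86377 exon lines. The catalogue names no gene, so the names rest on exon and intron lengths shared with the GENCODE annotation, given below.

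Imprinted genes are expressed mainly from the copy inherited from a particular parent, and the choice is set by DNA methylation laid down in the germ line. H19 lies beside the growth factor gene Igf2 on chromosome 7 and is the host of a microRNA (miRNA), a short RNA that guides repression of matching messenger RNAs. Meg3, Rian and Mirg follow each other in the Dlk1-Dio3 cluster on chromosome 12 and are transcribed in the same direction. Rian carries small nucleolar RNAs (snoRNAs), which as a class guide chemical modification of other RNAs, and Mirg carries miRNAs. Silencing of the Meg3 cluster is known from some lines of mouse pluripotent stem cells.

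The study sequenced RNA captured together with newly made DNA in wild-type mouse embryonic stem cells and wild-type NIH3T3 cells, an immortalised mouse fibroblast line. The 20 libraries formed 10 groups of 2, with the same 5 kinds of group in each cell type. All cells received EdU, a thymidine analogue, for 10 min and were fixed with 1% formaldehyde, and NIH3T3 cells had before that spent 15 h in 2 mM thymidine and 2.5 h in fresh medium. The no-click control received DMSO in place of biotin azide, the normal group was clicked without hydroxyurea, and the HU, chase and protease groups were clicked and carry the label of hydroxyurea at 4 mM for 4 h, which stalls replication forks. The labels describe neither the chase nor the protease step and leave unstated if a group's 2 libraries are separate cultures. The deposited file holds gene models only. It gives no value per library, so RNA levels of the 6 loci, and differences between groups, are not analysed here, read depth is unknown, and no value below has a replicate error.

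On chromosome 12, Meg3, Rian and Mirg lay in that order on the plus strand within 208.463 kb (mm9, the build of the file). This interval held 12 catalogued loci, 10 of them on the plus strand, and the 2 minus-strand loci were those opposite Meg3 and Mirg. Of the 76 transcripts of these loci, 65 belonged to Meg3, Rian and Mirg. The gap from Meg3 to Rian was 32.21 kb, and the gap from Rian to Mirg was 68.047 kb. In GENCODE, on the GRCm38 build, the same gaps measured 32.213 kb and 68.047 kb.

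Meg3 is the first RNA of the chromosome 12 array and is known as a growth-restraining nuclear RNA. Its models spanned chr12:110779206-110809939, or 30734 bp on the plus strand, and comprised 27 transcripts, 11 of them with a single exon and 16 spliced. Transcript length ranged from 247 nt (NONMMUT015705) to 14548 nt (NONMMUT015703) with a median of 1230 nt, and the most exons in a transcript were 10. Exons of all models together covered 59.0% of the span in 8 separate blocks.

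The central exons of Meg3 were its common part. The introns at 110787763 to 110787862 (100 nt) and at 110788021 to 110796446 (8426 nt) were each held by 11 transcripts, which were all the transcripts that spanned them. They were the only 2 of the locus' 21 distinct introns with no variation among the models that span them. The 158-nt exon between them and the 84-nt exon after them were each an internal exon of 10 transcripts, and the 74-nt exon before them of 9. The sequences of the 2 exons held by 10 transcripts, read 5′ to 3′ from the GENCODE transcripts with the same intron, exon and intron lengths, show what most spliced Meg3 models share (GRCm38 chr12:109549653-109549810 and chr12:109558237-109558320, plus strand):
Meg3 158-nt exon: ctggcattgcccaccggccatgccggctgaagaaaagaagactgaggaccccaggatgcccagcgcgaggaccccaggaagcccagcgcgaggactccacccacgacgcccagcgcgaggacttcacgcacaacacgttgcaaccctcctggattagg
Meg3 84-nt exon: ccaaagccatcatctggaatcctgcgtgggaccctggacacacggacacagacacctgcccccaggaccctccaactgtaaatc

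Variation in Meg3 lay on both sides of these exons. Of the 21 introns, 9 were held by 1 transcript. From the donor site at the end of the exon that precedes position 110784753, introns of 2748, 2936 and 2976 nt led to 3 different acceptors, in 2, 5 and 1 transcripts. The 84-nt exon was followed by an intron of 319 nt in 4 transcripts, of 10090 nt in 1 and of 13070 nt in 5. Downstream of the 319-nt intron lay the long terminal exons of NONMMUT015695 (9961 nt) and NONMMUT015703 (13087 nt), and the 13070-nt intron spans most of this stretch. All 11 single-exon models lay inside an exon of another Meg3 transcript and also inside an intron of another. The 13070-nt intron contained 9 of them, and all 9 were covered by exons of NONMMUT015695 and NONMMUT015703. None of the 11 had the length of a single-exon GENCODE transcript of Meg3. GENCODE has 11 Meg3 transcripts, and among them were the different intron chains of 10 spliced catalogued models. Hardly any single-exon transcript was thus left to match, so nothing is read from this count. Single-exon models had such a match in 4 of 4 cases in Rian, 1 of 1 in Mirg and 0 of 1 in H19.

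**Figure D1:**
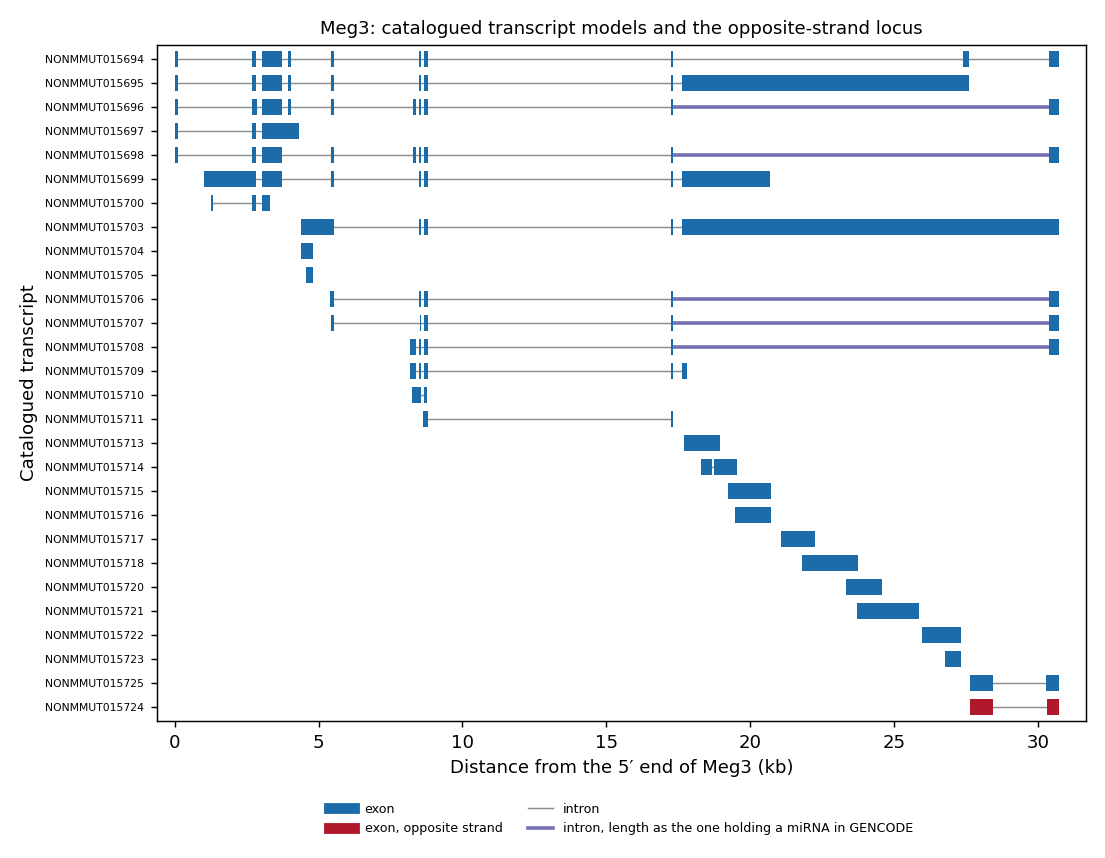
Catalogued transcript models of Meg3 and, in red, of the opposite-strand locus NONMMUG009964 (NONMMUT015724), one row per transcript (vertical axis), against distance from the 5′ end of Meg3 in kb (horizontal axis). Boxes are exons, thin lines are introns and thick lines mark the 13070-nt intron whose length equals that of the intron holding Mir770 in GENCODE; 9 of the 11 single-exon models lie within that intron, and 8 models reach the last group of 3′ ends.

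Starts and ends of Meg3 were both spread along the locus. Neighbouring ends within 50 bases were taken as a group, so a group can be wider than 50 bases. The 27 transcripts had 21 groups of 5′ ends and 16 groups of 3′ ends. By exact position the order turned, with 22 starts and 24 ends, and the spliced transcripts alone had 11 and 9 groups. The largest group of starts, at 110779206 to 110779211, held 5 transcripts, and 18 groups held a single transcript. The largest group of 3′ ends, at 110809929 to 110809939, held 8 transcripts. Just 3 models, NONMMUT015694, NONMMUT015696 and NONMMUT015698, ran from the first start to the last end. Starts shared by 2 transcripts lay 4.402 kb and 8.161 kb inside the locus. RefSeq gives Meg3 2 starts 4402 bases apart, and 1 catalogued start, that of 2 transcripts, lay at exactly this distance from the first.

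The promoter of the first start is shown because 5 models begin within 6 bases there and because RefSeq's second start and a catalogued start both lie 4402 bases downstream of it. RefSeq's window of 250 bases before and 50 after this start (GRCm38.p6, chr12:109540746-109541045, plus strand) has capitals at matches to the cAMP response element TGACGTCA and the TATA-box letters TATAAA, both searched on both strands:
Meg3 first start: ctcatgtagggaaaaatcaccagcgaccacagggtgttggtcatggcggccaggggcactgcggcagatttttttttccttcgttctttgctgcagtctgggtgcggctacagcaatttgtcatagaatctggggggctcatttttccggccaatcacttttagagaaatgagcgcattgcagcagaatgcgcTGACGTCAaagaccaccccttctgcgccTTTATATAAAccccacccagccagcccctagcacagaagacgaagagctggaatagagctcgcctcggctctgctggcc

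In this window TGACGTCA began 57 bases before the start. TATAAA began 25 bases before it on the plus strand, overlapping a match on the minus strand, so that the capitals of both run together. Among the 32851 RefSeq promoter windows of this length, 1.79% held TGACGTCA, 13.6% held TATAAA and 0.170% held both. The window of the second Meg3 start, that of Rian and that of Mirg held neither motif. The first Meg3 window contained 13 CG dinucleotides and the windows of the second Meg3 start, Rian and Mirg contained 1, 0 and 10, against a median of 7 over all windows. RefSeq's start of Mirg is not the first start of the catalogue, since its Mirg spans 14478 bp and the catalogue's 19695 bp.

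Within GENCODE, Meg3 contains 2 miRNA genes, both on its own strand. The hairpin of Mir1906-1 lies in an exon of 5 of the 11 GENCODE transcripts of Meg3. Mir770 lies in an exon of 1 and in an intron of 3, and the length of that intron, 13070 nt, was found in 5 catalogued transcripts. Their mature sequences (RefSeq, seed bases 2 to 8 in capitals) show the letters by which each would pair with a target:
mmu-miR-1906: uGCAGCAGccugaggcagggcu
mmu-miR-770-5p: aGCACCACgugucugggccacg
mmu-miR-770-3p: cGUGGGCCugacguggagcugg

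Rian was the longest of the 6 loci. It spanned chr12:110842150-110899926 (57777 bp, plus strand) with 24 transcripts, 20 spliced and 4 with a single exon. Transcript length ranged from 295 nt (NONMMUT015753) to 8089 nt (NONMMUT015776), with a median of 1348 nt. NONMMUT015751 had 26 exons, which were joined into 3248 nt. Exons covered 31.6% of the span in 19 blocks, about as many bases as in Meg3 (18259 against 18137) over a longer locus.

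Splicing of Rian was the most varied of the set by number of introns. There were 42 distinct introns, of which 17 occurred in 1 transcript, with 32 donor and 32 acceptor sites. At 7 donors the models joined more than 1 acceptor, at 9 acceptors more than 1 donor, and 10 introns skipped an exon that another model included. The 759-nt intron at 110889310 to 110890068 was held by 11 of the 12 transcripts that spanned it, the highest count in Rian. Of the 42 introns, 7 were held by every transcript that spanned them. Internal exons were short, with a median of 88 nt over 33 distinct exons, against 100 nt in Meg3 (12 exons), 128 nt in H19 (5) and 151.5 nt in Mirg (24). The 80-nt exon at 110890069 to 110890148 and the 147-nt exon at 110892496 to 110892642 were each held by 8 transcripts, more than any other Rian exon. Their sequences, from GENCODE transcripts with the same lengths (GRCm38 chr12:109651859-109651938 and chr12:109654286-109654432, plus strand), open with nearly the same letters:
Rian 80-nt exon: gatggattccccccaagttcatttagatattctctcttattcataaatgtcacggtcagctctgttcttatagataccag
Rian 147-nt exon: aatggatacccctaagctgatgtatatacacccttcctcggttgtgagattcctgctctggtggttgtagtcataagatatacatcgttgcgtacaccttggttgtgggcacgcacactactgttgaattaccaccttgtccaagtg

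This opening recurred along Rian. Of 25 distinct internal exons of the GENCODE gene, 9 (36%) had ATGGA as bases 2 to 6. Over GENCODE genes of long non-coding classes, such as lincRNA and antisense, 0.255% of 13746 internal exons had it. The motif was chosen after the exon sequences had been seen, and the 9 exons of Rian count among the 35 that hold it. It was searched on the transcribed strand only.

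**Figure D2:**
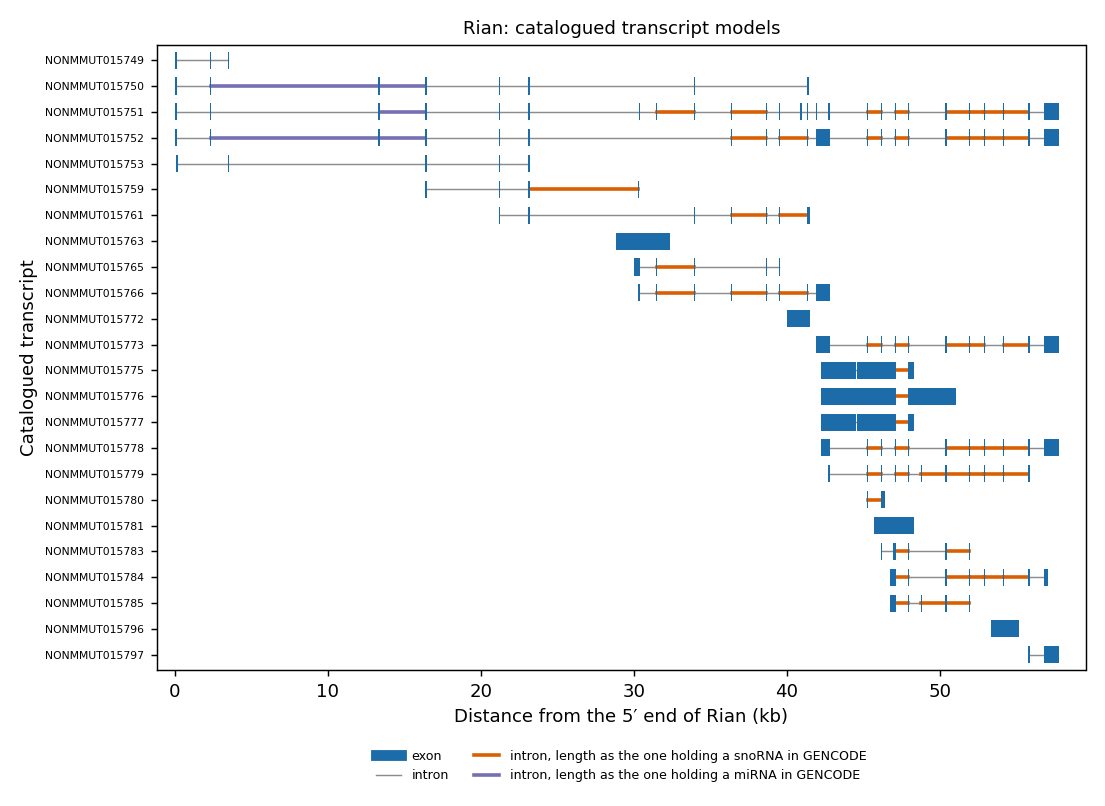
Catalogued transcript models of Rian, one row per transcript (vertical axis), against distance from the 5′ end of Rian in kb (horizontal axis). Boxes are exons and lines are introns. Coloured introns have the length of the smallest GENCODE intron holding a snoRNA (orange) or a miRNA (purple). Grey introns are all others, among them longer ones that also hold a small RNA. Orange introns recur in the downstream part, and 2 models, NONMMUT015751 and NONMMUT015752, cover the whole span.

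In GENCODE, Rian contains 13 snoRNA genes and 4 miRNA genes on its strand. An intron of some Rian transcript held 12 of the 13 snoRNAs, and the lengths of the holding introns of all 12 were found in the catalogue. The 759-nt intron held by 11 catalogued transcripts has the length of the intron that holds DQ267101. An exon of some transcript held 8 of the 13, so 5 were intronic in every GENCODE transcript that spans them. The snoRNAs lay 351 to 3045 bases from the 3′ end of the smallest intron holding them, with a median of 1165.5. C and D boxes mark the C/D class and were searched as TGATGA in the first 15 bases and CTGA in the last 15. Matches are in capitals for the first of the 13 along Rian, Gm24564, and the most alike pair, DQ267101 and DQ267102. In Gm24564 11 bases follow CTGA, against 7 in every other Rian snoRNA with a match, so its match may not be the D box. The sequences are those of GENCODE transcripts, given as DNA letters (GRCm38 chr12:109631074-109631148, chr12:109651424-109651496 and chr12:109656345-109656416, plus strand):
Gm24564: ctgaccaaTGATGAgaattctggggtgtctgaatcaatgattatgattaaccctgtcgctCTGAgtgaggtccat
DQ267101: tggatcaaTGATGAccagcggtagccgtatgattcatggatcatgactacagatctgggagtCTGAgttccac
DQ267102: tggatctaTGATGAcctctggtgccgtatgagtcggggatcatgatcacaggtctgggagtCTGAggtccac

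DQ267101 and DQ267102 were 83.6% identical, with 12 edits between them. Over all 78 pairs of the 13 snoRNAs the median identity was 61.9%, and the least alike pair, Gm24564 and Gm23508, was at 46.7%. TGATGA was present in 9 of the 13 and CTGA in 10, and 7 (53.8%) had both, against 61.3% of the 62 GENCODE snoRNA transcripts of 71 to 75 nt. The 13 snoRNAs of Rian count among these 62. Box letters were searched on the transcribed strand, and other spellings of the boxes were not searched.

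The 4 miRNA genes of Rian, Mir341, Mir1188, Gm23912 and Mir370, lay in introns of 2 of the 20 GENCODE transcripts each and in no exon. The introns that held them had lengths found in the catalogue for all 4. Mature sequences of the first and the last along the locus were:
mmu-miR-341-3p: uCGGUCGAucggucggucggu
mmu-miR-370-3p: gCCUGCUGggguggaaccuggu

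Rian models began at 17 groups of starts and ended at 15 groups of ends. The first start group, at 110842150 to 110842155, and a group 42.222 kb downstream each held 4 transcripts. A further group at 46.741 kb held 2, and the other 14 groups held 1 transcript each. The last group of ends, at 110899919 to 110899926, held 5 transcripts. The 4 single-exon models, of 1501 to 3476 nt, lay wholly inside no exon of another Rian model, though each overlapped such exons. Each also had the length of a GENCODE transcript.

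Mirg, the third RNA of the array, is known as a host of miRNAs. Its models spanned chr12:110967974-110987668 (19695 bp, plus strand) with 14 transcripts, 13 of them spliced. NONMMUT015846 and NONMMUT015847 had 17 exons and 3797 nt each. Length ranged from 313 nt (NONMMUT015853) to 3867 nt (NONMMUT015851), with a median of 1225.5 nt. Exons covered 39.3% of the span in 14 blocks.

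Mirg introns recurred among its models more than those of Meg3 or Rian. Of 29 distinct introns, 24 occurred in 2 or more transcripts, against 12 of 21 in Meg3, 25 of 42 in Rian and 4 of 6 in H19. The introns at 110973232 to 110975890 (2659 nt), 110980026 to 110980271 (246 nt) and 110986504 to 110987304 (801 nt) were each held by 6 transcripts. The 229-nt exon at 110980272 to 110980500 was an internal exon of 6 transcripts (GENCODE sequence at GRCm38 chr12:109742062-109742290, plus strand, shown as the most shared Mirg exon):
Mirg 229-nt exon: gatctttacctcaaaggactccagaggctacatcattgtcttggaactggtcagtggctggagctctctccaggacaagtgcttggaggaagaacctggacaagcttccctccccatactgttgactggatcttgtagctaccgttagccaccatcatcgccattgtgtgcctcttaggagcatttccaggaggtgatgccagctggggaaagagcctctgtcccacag

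**Figure D3:**
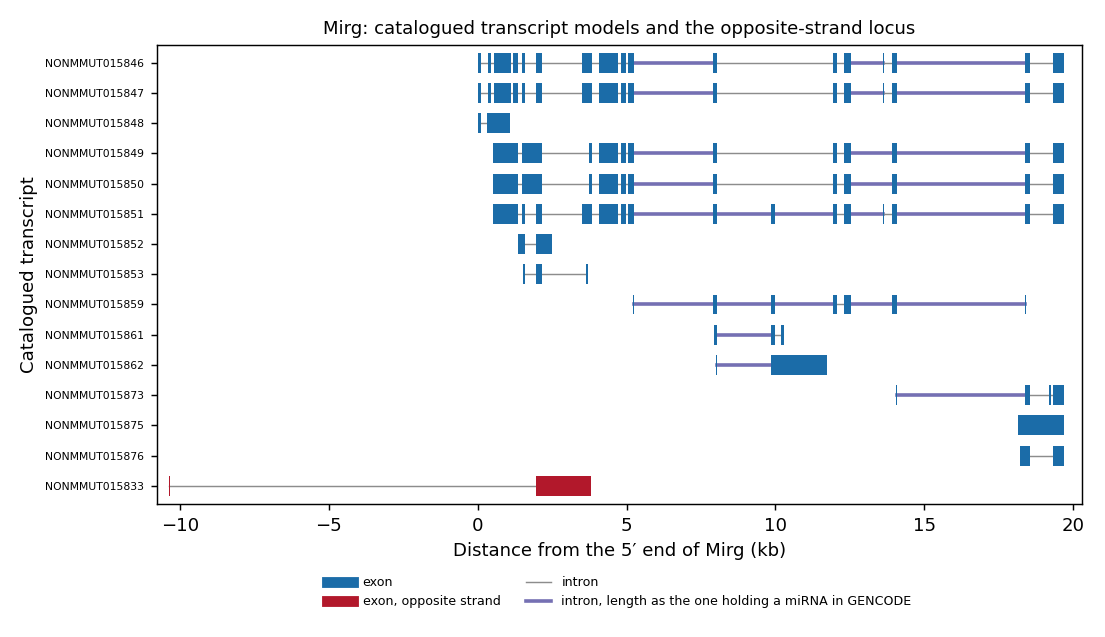
Catalogued transcript models of Mirg and, in red, of the opposite-strand locus NONMMUG009973 (NONMMUT015833), one row per transcript (vertical axis), against distance from the 5′ end of Mirg in kb (horizontal axis). Boxes are exons and lines are introns. Purple introns have the length of the smallest GENCODE intron that holds a miRNA, and grey introns are all others, among them longer ones that also hold a miRNA. At the right 8 of the 14 models end together, and the red locus reaches more than 10 kb to the left of Mirg.

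Ends of Mirg converged on a common 3′ site. The group of 3′ ends at 110987665 to 110987668 held 8 of 14 transcripts, and the 6 other groups held 1 each. Starts formed 10 groups, the largest of which, at the 5′ end of the locus and 0.512 kb downstream, held 3 transcripts each.

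Some Mirg introns were catalogued at 2 places 4 bases apart with the same length. The 4277-nt intron began at 110982058 in 5 transcripts and at 110982062 in 2, and the 3882-nt intron began at 110976018 in 2 and at 110976022 in 2. Among spliced loci of the catalogue 0.481% held such a pair of introns shifted by 1 to 10 bases, and Rian and Mirg were 2 of them. GENCODE holds both places of the 4277-nt intron and 1 of the 3882-nt intron. The joined exons of the 4277-nt intron, read from GENCODE transcripts of both kinds, are shown with the 4 bases in capitals that fall after the junction in the first and before it in the second:
Mirg junction, first place: accactgcccgGCAGgtgacaacgct
Mirg junction, second place: accactgcccgGTAGgtgacaacgct

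The 26 bases differed by 1 substitution, C13T, counted from the first base shown, with the first place given first. The 2 placements therefore give spliced RNAs of the same length that differ at 1 position.

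GENCODE places 14 miRNA genes on the strand of Mirg within its span, from Mir382 to Mir3072, and 1 on the other strand, Gm24321. An intron of some Mirg transcript held 9 of the 14, and lengths of the holding introns were found in the catalogue for all 9. The hairpins of Mir134, Mir485, Mir377 and Mir410 lay wholly in an exon of some transcript. Those of Mir382 and Mir668 lay partly in an exon of 3 transcripts each, and wholly in no exon or intron. The intron of 2659 nt that holds Mir453 had its length in 6 catalogued transcripts, and the 4277-nt intron that holds Mir3072 had it in 7. In the whole interval from Meg3 to Mirg GENCODE has 59 plus-strand miRNA genes, of which 20 lie within the 3 RNAs, 13 between Meg3 and Rian, and 26 between Rian and Mirg, and 23 snoRNA genes, 13 of them in Rian and 10 between Rian and Mirg. Mature sequences are given for the first and last miRNA of Mirg, for those in exons, and for the single seed shared within the hosts, GGUUGCC of miR-453 and miR-496a-5p:
mmu-miR-382-5p: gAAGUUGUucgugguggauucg
mmu-miR-134-5p: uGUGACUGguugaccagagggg
mmu-miR-485-3p: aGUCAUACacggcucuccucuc
mmu-miR-453: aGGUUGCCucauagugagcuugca
mmu-miR-496a-5p: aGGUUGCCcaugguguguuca
mmu-miR-377-3p: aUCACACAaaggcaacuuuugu
mmu-miR-410-3p: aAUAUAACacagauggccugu
mmu-miR-3072-3p: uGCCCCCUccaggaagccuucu

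H19, one of the most abundant RNAs of the mouse embryo, was the compact locus of the set. It spanned chr7:149761434-149764051 (2618 bp, minus strand) with 6 transcripts, 5 spliced and 1 with a single exon. Length ranged from 296 nt (NONMMUT064280) to 2615 nt (NONMMUT064277), with a median of 1394 nt, and NONMMUT064278 had the most exons, 6. Exons together covered 100% of the span, and the single-exon model NONMMUT064277 runs through every intron. All 6 introns of H19 lay inside an exon of another model, and none was held by every transcript that spans it.

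The introns of H19 fell into 4 short ones of 78 to 88 nt in the 3′ part and 2 longer ones in the 5′ part. The 82-nt intron at 149762436 to 149762517 was held by 4 of 5 spanning transcripts, the highest count. The 81-nt and 88-nt introns were each held by 3 of 4, and the 78-nt intron by 2 of 4. The 491-nt and 381-nt introns of the 5′ part occurred in 1 transcript each, NONMMUT064281 and NONMMUT064278. The most shared internal exon, of 135 nt in 3 transcripts at 149762518 to 149762652, has this sequence in GENCODE (GRCm38 chr7:142576613-142576747, minus strand):
H19 135-nt exon: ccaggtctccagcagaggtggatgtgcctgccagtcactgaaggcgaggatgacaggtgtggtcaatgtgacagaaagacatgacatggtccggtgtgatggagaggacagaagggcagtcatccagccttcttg

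**Figure D4:**
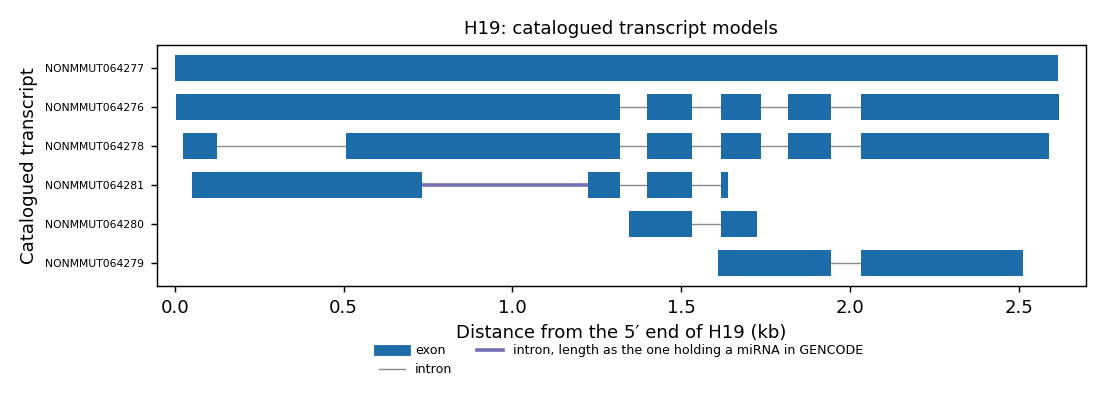
Catalogued transcript models of H19, one row per transcript (vertical axis), against distance from the 5′ end of H19 in kb, in the direction of transcription (horizontal axis). Boxes are exons, thin lines are introns and the thick line is the 491-nt intron whose length equals that of the GENCODE intron holding Mir675; 4 models start at the left and 3 of the 6 reach the last group of 3′ ends.

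The 6 transcripts of H19 differed in every exact start and every exact end. With ends grouped within 50 bases they had 3 groups of starts, or 5 within 10 bases, and 4 transcripts started in the first, at 149764000 to 149764051. They had 4 groups of ends, or 2 within 200 bases, and 3 transcripts ended in the last of the 4, at 149761434 to 149761463. The same 3 models spanned the whole locus.

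H19 is the precursor of miR-675, and the isoforms differ in whether they contain it. In GENCODE the Mir675 hairpin lay in an exon of 3 of 7 H19 transcripts and inside a 491-nt intron of 1. The transcript with the 491-nt intron had every exon and intron length of NONMMUT064281, and a transcript with the hairpin in its 1315-nt exon had every length of NONMMUT064276. In the latter, miR-675-5p began at base 1011 and miR-675-3p at base 1045, and 235 bases separated the hairpin from the end of the exon. The mature sequences (RefSeq, seed in capitals) are those that the 491-nt intron would remove:
mmu-miR-675-5p: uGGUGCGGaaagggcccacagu
mmu-miR-675-3p: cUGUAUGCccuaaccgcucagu

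The locus opposite Meg3, NONMMUG009964, was a mirror of Meg3 exons. It lay at chr12:110806838-110809933 (3096 bp, minus strand) with 1 transcript of 2 exons, 802 and 426 nt, joined into 1228 nt. All 1228 exon bases were shared with Meg3 exons on the other strand, which was 6.77% of the exon bases of Meg3. Of the 27 Meg3 transcripts 8 took part: 6 shared 329 to 333 bases at the common last exon, NONMMUT015703 shared 1228, and NONMMUT015725 shared 1226. NONMMUT015725 had the same outer ends as NONMMUG009964 and the same length, 1228 nt, with its 1868-nt intron placed 2 bases away. In the catalogue 0.341% of loci had a transcript whose outer ends equal those of a transcript on the opposite strand. GENCODE has a lincRNA, Gm26906, with the same exon lengths, the same strand and the same span (GRCm38 chr12:109568628-109571723), and no Meg3 transcript with the lengths of NONMMUT015725.

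The locus opposite Mirg, NONMMUG009973, overlapped only the 5′ part of Mirg. It lay at chr12:110957602-110971768 (14167 bp, minus strand), with 1 transcript of 1844 nt made of an exon of 1836 nt and, across an intron of 12323 nt, an exon of 8 nt. Exons under 10 nt were present in 0.512% of loci. It shared 808 exon bases with Mirg, which was 43.8% of its own exon bases and 10.4% of those of Mirg. Of the 14 Mirg transcripts 7 shared between 241 and 530 bases with it, up to 77.0% of NONMMUT015853 and 70.3% of NONMMUT015852. Its intron length was found in no GENCODE gene of chromosome 12, and its name as a gene is not known here. Both partners were chosen for lying opposite Meg3 and Mirg, so overlap of these 4 loci was given by the choice, and nothing is read from it beside the 5.49% of all loci with exon overlap on the opposite strand. Rian and H19 had no such partner. Strand keeping in the libraries is not stated, and without it reads from shared bases cannot be told apart.

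Intron ends could be read for 30 of the 98 introns of at least 30 nt, because a model that keeps the intron in an exon equals a GENCODE transcript in every length. Of these, 24 began with GT and ended with AG, the usual splice signals, and the 491-nt intron of H19 began with GC and ended with AG. The other 5 did not carry these pairs: the 1868-nt introns of NONMMUT015725 in Meg3 and of NONMMUG009964, a 53-nt intron of Meg3, and the 60-nt intron of Rian catalogued at 2 places 1 base apart. For the shared Rian intron of 759 nt, the H19 intron and the mirrored pair, 10 bases on each side of the donor and acceptor borders are shown in the direction of transcription, with the first and last 2 bases of the intron in capitals:
Rian 759-nt intron, donor: ttgacactgtGTgagtatca
Rian 759-nt intron, acceptor: acattctcAGgatggattcc
H19 491-nt intron, donor: gtcaaacaggGCaagatggg
H19 491-nt intron, acceptor: agccagggAGgcactggcct
Meg3 1868-nt intron, donor: ccatccccagTCctcgtcct
Meg3 1868-nt intron, acceptor: ctgggttgCCccctccagtt
NONMMUG009964 1868-nt intron, donor: ggaactggagGGggcaaccc
NONMMUG009964 1868-nt intron, acceptor: acaggacgAGgactggggat

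Both placements of the 1868-nt intron thus lacked a GT to AG pair on their own strand. Gaps too short for an intron also occurred: Meg3 had a gap of 23 nt and Rian a gap of 8 nt between exons, as did 5.84% of spliced loci at under 30 nt. Meg3, Rian, Mirg and H19 were all among the 6.96% of spliced loci with an intron inside an exon of another transcript, which was the case for 7 of 21 introns in Meg3, 14 of 42 in Rian and 8 of 29 in Mirg.

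Most of the structure was shared with GENCODE. Whether the catalogue shares source records with GENCODE or RefSeq was not tested, so equal lengths and distances are not independent checks of the models. A run of lengths (an intron, the exon that follows it and the intron after that) was found in the GENCODE gene of that name for 4 of 5 runs of H19, 18 of 22 of Meg3, 36 of 49 of Rian and 28 of 32 of Mirg. With the reference read backwards 0 were found. Reversed runs of exact lengths could hardly match, so this 0 is no check on the names. The whole chain of introns was found for 3 of 5 spliced H19 transcripts, 10 of 16 of Meg3, 14 of 20 of Rian and 11 of 13 of Mirg. The 26-exon Rian model was not among them, since the GENCODE transcripts of Rian had at most 11 exons. In Meg3 and Mirg the most exons were equal in both, 10 and 17. GENCODE lists 11 transcripts of Meg3 against 27 catalogued here, 20 of Rian against 24, 12 of Mirg against 14, and 7 of H19 against 6.

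Against the whole catalogue, the 4 named RNAs were rich in models. A locus had a median of 1 transcript, 1 exon and a longest transcript of 1332 nt. Loci with 5 or more transcripts made up 2.17% of the catalogue and included H19, Meg3, Rian and Mirg, and 0.232% had a transcript of 10 or more exons, among them Meg3, Rian and Mirg. By number of transcripts 25 loci lay above Meg3, 30 above Rian, 67 above Mirg and 296 above H19. By the most exons in a transcript 1 locus lay above Rian, 9 above Mirg, 48 above Meg3 and 289 above H19. By the longest transcript 11 loci lay above Meg3 and 77 above Rian, while Mirg and H19 lay above 94.7% and 78.9% of loci. Both opposite-strand loci had 1 transcript of 2 exons.

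**Figure D5:**
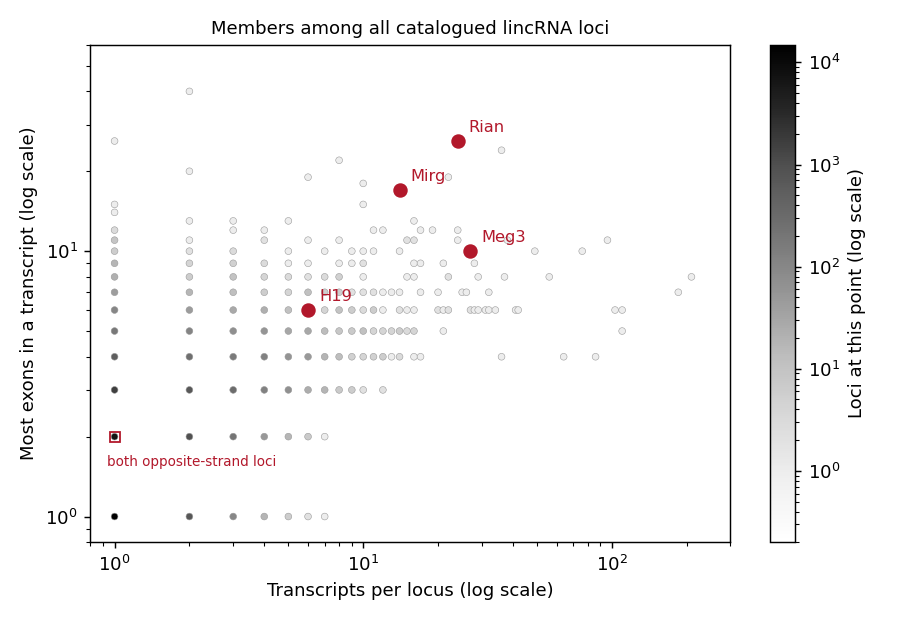
Most exons in a transcript (vertical axis, log scale) against transcripts per locus (horizontal axis, log scale) for all 29286 catalogued loci, where grey shade gives the number of loci at a point (log scale). H19, Meg3, Rian and Mirg are the red points, at 6, 27, 24 and 14 transcripts, and the red square holds both opposite-strand loci at 1 transcript and 2 exons.

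The loci most alike by number of transcripts, most exons and longest transcript, on log2 scales over all loci, were measured by Euclidean distance. They were NONMMUG046363 (distance 0.0451) and NONMMUG019537 (0.226) for H19, NONMMUG045610 (0.912) and NONMMUG019086 (1.02) for Meg3, NONMMUG027776 (0.693) and NONMMUG044868 (0.773) for Rian, and NONMMUG038178 (0.537) and NONMMUG004396 (0.602) for Mirg. H19 thus had near equals in these 3 measures, which leave out the span of the locus, while the nearest to Meg3, with 16 transcripts of up to 9 exons and 10369 nt, lay farther off.

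Around the members few other loci were catalogued within 20 kb. Meg3 had NONMMUG009959 on the minus strand at 4.645 kb, the pair NONMMUG009960 and NONMMUG009961 on opposite strands at 8.092 kb, and the single-exon NONMMUG009963 (3458 bp) inside an intron on its own strand. Rian had NONMMUG009967 at 1.758 kb upstream, NONMMUG009970 and NONMMUG009971 at 7.152 and 9.332 kb downstream, and the single-exon NONMMUG009969 (2011 bp) within its span on the same strand with no shared exon base. Mirg had NONMMUG009974 at 7.072 kb, which lies within the intron of NONMMUG009973, and NONMMUG009976 at 14.235 kb. NONMMUG009972 lay 16.804 kb from NONMMUG009973, and NONMMUG039672 lay 16.93 kb from H19.

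Other imprinted non-coding RNAs were looked up in the same way. Of a list of 12, 6 shared a run of lengths with a catalogued locus: the 4 named RNAs, Snhg14, which carries the snoRNAs of the Prader-Willi region (NONMMUG038160, 12 shared runs), and Dio3os, which lies opposite the deiodinase gene Dio3 at the far end of the chromosome 12 cluster (NONMMUG009986, 3 shared runs). B830012L14Rik, a 2-exon gene, shared only an intron length, with NONMMUG009972. It has no such run in GENCODE, and neither have Kcnq1ot1 and Peg13, so these 3 could not be tested by runs. Airn, Nespas and Igf2os have runs and shared none, from which their absence cannot be read.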

How the data were processed

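The deposited file is a table of exons in GTF format with start and end positions, strand and identifiers of locus and transcript. Its values as deposited are positions, 1-based in mm9, and its score field is empty in every line. TopHat2 2.0.8 and Cufflinks 2.1.1 on mm9 are named in the submitters' processing notes, and Cufflinks also in the file's source field. The deposited file is labelled as mouse lincRNAs of NONCODE, a database of non-coding RNAs, and its locus and transcript identifiers are of that kind. The models are therefore not described here as assembled from these 20 libraries. Beyond that label, the sources used here do not give how models were chosen or how they relate to reads of the libraries. The tests between libraries that had been planned could not be run, because the file holds no value per library.

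Members and lists were chosen with earlier results of these data known. The length of a transcript adds up its exons, a gap between exons counts as an intron, and neighbouring ends within 50 bases form a group. Exon numbers rise with coordinate in all 11495 spliced minus-strand transcripts, so 5′ ends were taken from strand. Opposite-strand overlap needs 1 shared exon base. GENCODE M21 is on GRCm38, a different build: the last locus on chromosome 12 of the file ends at 121151441, and the last GENCODE gene there at 120021246. The builds were linked only by equal lengths on the same chromosome and strand, and no coordinate was converted. Exon and intron sequences were read from GENCODE transcripts by position within the transcript, and miRNA and promoter sequences are RefSeq's (GRCm38.p6). Of the miRNA genes in H19, Meg3, Rian and Mirg, 1 of 1, 2 of 2, 3 of 4 and 14 of 15 had a RefSeq mature sequence.

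Named were all 6 loci, the transcripts with the most exons and the greatest and smallest length, the most shared exons, introns and ends, loci within 20 kb, the 2 most alike loci, and small RNAs in exons or first or last in a cluster. Anything else named was picked after its values had been seen, among it the snoRNA pairs, the introns whose ends are shown and the exon-start motif. The procedures were tested on simulated models. Python 3.11.15, matplotlib 3.10.9 and edlib 1.3.9.post1 were used.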

Additional observations from a re-analysis of the deposited data

How the results depend on the processing

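No paired analysis was possible because the deposited file holds no value per library, and for the same reason no library was left out in turn. Read depth is unknown. The count of 73 transcripts became 56 when only spliced transcripts were kept. These had 40 distinct chains of introns when chains that are part of a longer chain were dropped. The 100 distinct introns of the 6 loci became 65 when an intron needed at least 2 transcripts, and 98 with gaps under 30 nt closed. The 86 runs of lengths found in GENCODE became 0 with the reference read on the opposite strand, where reversed lengths could hardly match. Groups of ends numbered 97, 122 by exact position, 105 within 10 bases and 88 within 200 bases, and 74 when only spliced transcripts were kept. Opposite-strand partners, summed over the 6 loci, numbered 4 by shared exon bases, 4 with at least 100 shared bases and 5 by whole spans. Of 126 alternative values of single loci, 106 stayed within 1.5 times of the main value and 20 did not, 16 of them downward. The downward ones include the reference read on the opposite strand, at 0 for each named RNA. Starts and ends enter both combined and apart, so this tally does not count separate results. Model ends are often imprecise, which limits the counts of starts and ends.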

Other observations

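Some models were near copies. NONMMUT015775 and NONMMUT015777 of Rian had the same 3 exons and 5248 nt except for the 1-base shift of the 60-nt intron, and NONMMUT015846 and NONMMUT015847 of Mirg had 17 exons and 3797 nt each with the 4-base shift of the 3882-nt intron.

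Transcript numbers were not continuous. From the first to the last number of Rian there were 49 numbers, of which 24 belonged to Rian, 1 to another locus and 24 were absent from the file. In Mirg 17 of 31 numbers were absent, in Meg3 3 of 32 and in H19 0 of 6.

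A mirrored pair also lay upstream of Meg3, where NONMMUG009960 and NONMMUG009961 occupied the same 2012 bases on both strands with 1 exon each.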
